A study of Sus scrofa with 6 samples.

Results

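A set of 10 genes that mark or govern trophoblast was followed in the pregnant sow: the pregnancy-associated glycoproteins PAG6 and PPAG3, the placental surface and secreted proteins PLET1 and PLAC1, and the transcription factors HAND1, GATA3, GATA2, TFAP2C, DLX5 and GCM1. All probe sets whose single platform gene symbol is one of these names were taken, which gave 19 of the 23999 probe sets that are not controls, for 10 of 6567 named genes. There were 6 arrays, 1 for each combination of tissue and stage. They carried tissue labelled myometrium from sows that were not pregnant (np), early pregnant (EP) or late pregnant (LP), and ovary from sows at the same stages. Of the pigs the labels give no breed, age or day of gestation. The design counts 9 pigs, 3 per stage, but how the RNA of the 3 pigs of a stage relates to the array is not stated in the labels. Each group had 1 array, so no difference between stages has a replicate check, and none has a p-value.

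Trophoblast is the outer cell layer of the conceptus and becomes the fetal side of the placenta. In the pig the placenta is epitheliochorial: trophoblast stays attached to an intact uterine epithelium and does not invade it, so maternal and fetal tissue lie side by side at the uterine surface. Pregnancy-associated glycoproteins are secreted proteins of the aspartic protease family, made by trophoblast of even-toed ungulates, and the family has many closely related copies. The comparison of uterine tissue at EP and LP with np and with ovary asks whether transcripts of conceptus tissue were present on these arrays.

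The label myometrium names the smooth muscle wall of the uterus, and the arrays were checked against marker genes. Of 14 epithelial genes on the array, 0 lay at or under the floor on any uterine array, and their summed signal was 56045, 50674 and 61972 on the uterine arrays at np, EP and LP, against 1760 (np), 1747 (EP) and 1381 (LP) on the ovary arrays. The summed signal of 8 smooth muscle genes was lower on the uterine arrays (11606, 20976 and 22803) than on the ovary arrays (33916, 39827 and 26296). ACTA2, smooth muscle actin, read 7613, 13313 and 14389 on the uterine arrays and 23509, 22689 and 18571 on the ovary arrays. Epithelial genes were thus detected on every uterine array, and the tissue is called uterine below. The floor, under which signals have no order, was 81.7, the 40th percentile of all signals, and between 57.4% and 61.6% of probe sets on an array lay above it. Where the dimmer array lay at the floor, the ratio is a bound and is written "at least". RNA quality, read as GAPDH signal at the 3' end over that at the 5' end, lay between 1.52 and 1.70 on the uterine arrays and between 1.51 and 2.33 on the ovary arrays.

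**Figure D1:**
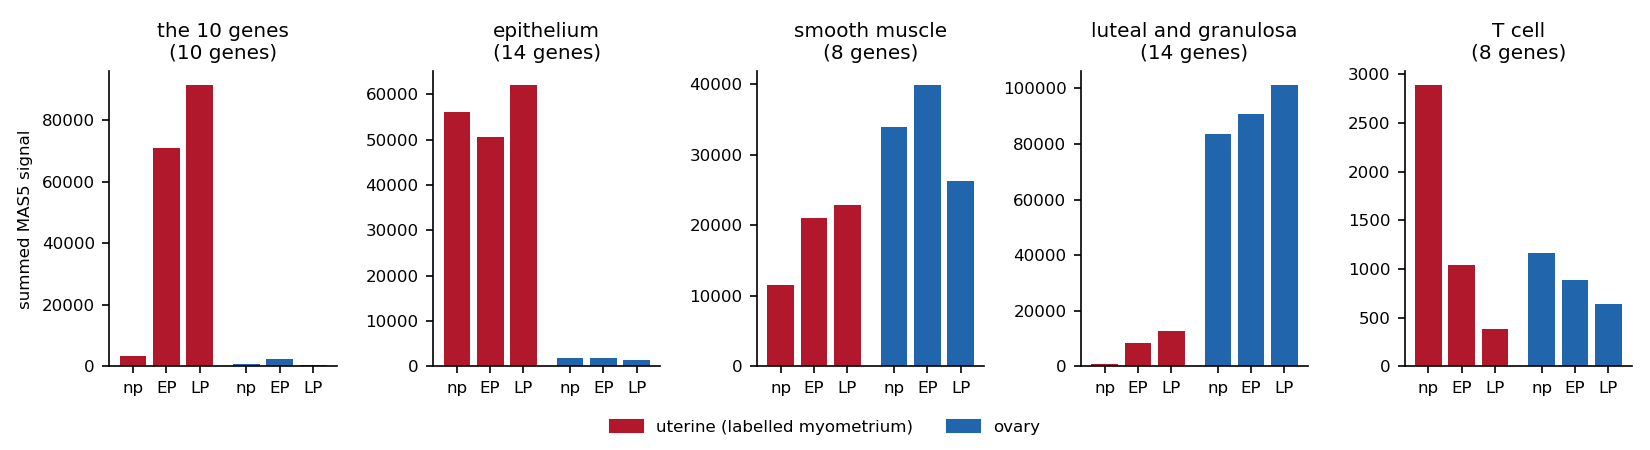
Summed MAS5 signal (linear axis from 0, one scale per panel) of the 10 genes and of 4 marker lists on each array, with uterine arrays in red and ovary arrays in blue. The 10 genes summed to 70963 on the EP and 91262 on the LP uterine array and to at most 3487 on the others, epithelial genes stayed high on all uterine arrays, and T cell genes were highest on the np uterine array.

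Both glycoproteins were high on the pregnant uterine arrays and lay at or under the floor on the np uterine array. PAG6 was read by 3 probe sets. Its brightest, Ssc.7484.2.S1_at, had signals of 75.2, 22022 and 28500.2 on the uterine arrays at np, EP and LP, and of 36.6, 239.8 and 18.8 on the ovary arrays at those stages. Only the pregnant uterine arrays and the EP ovary array exceeded the floor. It was at least 269.5-fold higher at EP and at least 349-fold higher at LP than at np. PPAG3, with a single probe set, read 45.9, 8169 and 15847 on the uterine arrays and 44.0, 90.6 and 26.3 on the ovary arrays. It was at least 99.99-fold higher at EP and at least 194-fold higher at LP than at np.

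The probe sets of PAG6 did not run in parallel through pregnancy. Ssc.7484.3.S1_at read 14.7, 22493 and 24345 on the uterine arrays, so its LP signal was within 1.08-fold of EP, and that of the brightest probe set was 1.29-fold higher. Ssc.7484.1.S1_at read 4.4, 17744 and 7021, and was 2.53-fold lower at LP than at EP. All are assigned to the same gene by the platform annotation. In RefSeq's gene table for Sscrofa11.1, PAG6 also carries the names PAG10 and PAG2, PPAG3 carries PAG1, and 4 loci known by number only lie between them. Which of the closely related copies each probe set reads was not tested, and the values are those of the probe sets rather than of one transcript.

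PLET1, a protein anchored to the cell surface and first described in mouse placenta, was high on both pregnant uterine arrays. Its brightest probe set, Ssc.2506.1.S1_at, read 49.1, 32821 and 31638 on the uterine arrays at np, EP and LP. On the ovary arrays it read 140.0, 1661 and 14.2. The signal on the np uterine array lay under the floor. The ratio was at least 402-fold at EP and at least 387-fold at LP over np. EP and LP differed by less than 1.04-fold. The second probe set, Ssc.10389.1.A1_at, read 28.5, 517 and 472 on the uterine arrays and at most 25.3 on the ovary arrays. It gave at least 6.33-fold at EP over np.

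PLAC1, an X-linked gene named for its placental expression in mouse and human, followed a different course from the glycoproteins and PLET1. Its brightest probe set, Ssc.8856.2.A1_at, read 117.5, 635 and 8035 on the uterine arrays, and 62.6, 25.3 and 8.1 on the ovary arrays. No ovary array exceeded the floor, and each pregnant uterine array exceeded the np one. On the log2 scale it was 2.43 higher at EP and 6.10 higher at LP than at np, the LP ratio being 68.4-fold. LP exceeded EP by 12.7-fold with this probe set and by 17.2-fold with the other, Ssc.8856.1.A1_at, which read 14.4, 306 and 5259.

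**Figure D2:**
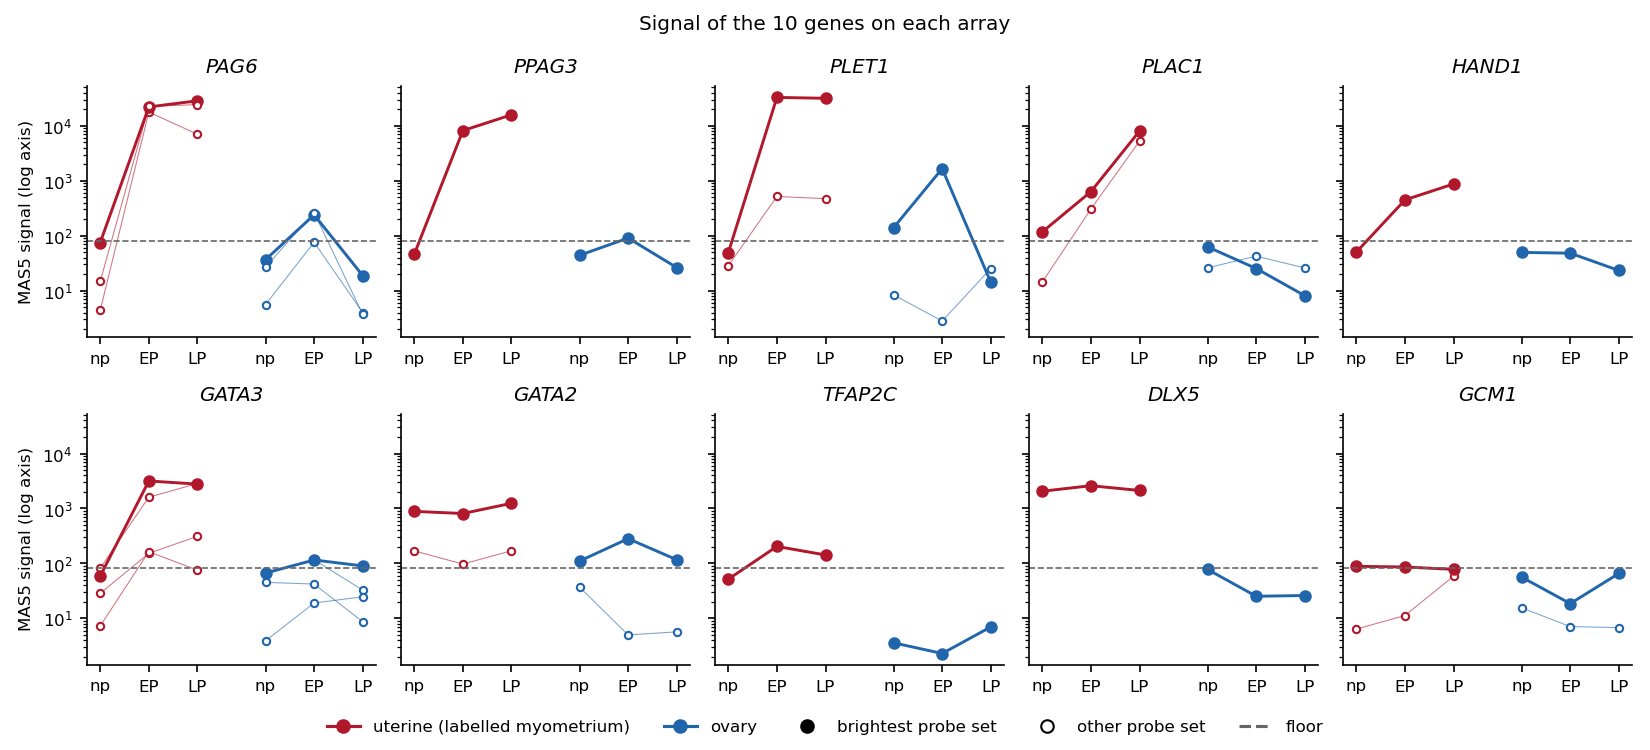
MAS5 signal (log axis) of every probe set of the 10 genes on the 6 arrays, uterine arrays in red on the left of each panel and ovary arrays in blue; points are single arrays with no error, filled for the brightest probe set of a gene and open for the others, and the dashed line is the floor of 81.7. The brightest probe sets of PAG6, PPAG3, PLET1, PLAC1, HAND1 and GATA3 lie far above the floor on the pregnant uterine arrays. Those of GATA2 and DLX5 are already high on the np uterine array.

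Among the transcription factors, GATA3 and HAND1 had the pattern of the glycoproteins, and GATA2 and DLX5 did not. GATA3, a zinc finger factor that acts in mouse trophectoderm and also in T cells, was read by 4 probe sets. The brightest, Ssc.27964.2.S1_at, had signals of 59.2, 3168 and 2778 on the uterine arrays and 67.0, 115.6 and 90.2 on the ovary arrays. It was at least 38.8-fold higher at EP and at least 34.0-fold higher at LP than at np. Ssc.21354.1.S1_at read 82.2, 1609 and 2848 on the uterine arrays, higher than at np by 4.29 (EP) and 5.11 (LP) on the log2 scale. The remaining probe sets lay closer to the floor. Ssc.21354.2.S1_at read 28.6, 152.7 and 312 on the uterine arrays, and Ssc.27964.1.S1_at read 7.3, 163.8 and 75.3.

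T cell genes moved the other way on the same arrays. At EP, 5 of 6 measured T cell genes were lower than at np by 2-fold or more and 0 were higher. Their median log2 ratio was -1.64, against -0.19 over all 5642 measured named genes, of which 10.3% were lower and 9.18% higher. CD3E, a chain of the T cell receptor complex, read 580.7, 127.2 and 107.0 on the uterine arrays. The summed signal of 8 T cell genes was 2888, 1044 and 382 on the uterine arrays and between 641 and 1170.1 on the ovary arrays. Their part in the GATA3 values was not tested.

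HAND1, a basic helix-loop-helix factor needed for trophoblast giant cells in the mouse, also had the pregnant pattern. It read 50.4, 449 and 874 on the uterine arrays and 49.7, 48.1 and 23.3 on the ovary arrays. Only the pregnant uterine arrays exceeded the floor, with at least 5.49-fold at EP and at least 10.7-fold at LP over np. With the floor at the 60th percentile its EP ratio was 0.87 on the log2 scale, short of 2-fold. TFAP2C, the AP-2 gamma factor of trophectoderm in the mouse, read 51.7, 204.2 and 142.6 on the uterine arrays and at most 7.0 on the ovary arrays. Its ratio was at least 2.50-fold at EP and at least 1.75-fold at LP over np, so it was called at EP and not at LP. With the floor at the 60th percentile it lay at the floor on every array.

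DLX5, a homeobox factor of skeletal and craniofacial development that is also active in the mouse uterine epithelium, was high in uterine tissue at every stage. It read 2063, 2598 and 2127 on the uterine arrays and 77.7, 25.3 and 26.1 on the ovary arrays, so every ovary array lay under the floor. Its stage ratios were 1.26-fold at EP and 1.03-fold at LP over np. GATA2 acts in mouse trophoblast and also in uterine stroma, endothelium and mast cells. By its brightest probe set, Ssc.4743.1.S2_at, it too was high in uterine tissue at every stage, at 887, 811 and 1243. On the ovary arrays it read 110.5, 282 and 116.8. Its second probe set, Ssc.4743.1.S1_at, read 169.4, 97.4 and 170.0 on the uterine arrays and lay under the floor on all ovary arrays. KIT, the stem cell factor receptor of mast cells, read 810.2, 290.1 and 259.0 on the uterine arrays and between 917 and 1299 on the ovary arrays.

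GCM1, the factor that governs branching of the placental labyrinth in the mouse, stayed close to the floor. Its brightest probe set read 88.7, 86.2 and 78.2 on the uterine arrays, at the level of the floor, and 56.4, 18.6 and 65.9 on the ovary arrays. The other, Ssc.27605.1.A1_at, lay under the floor on all 6 arrays. At this signal a difference for GCM1 was not detectable.

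Counted by the brightest probe set, 7 of the 10 genes were 2-fold or more higher at EP than at np and 0 were lower, with 3 between. Over all 15836 measured probe sets, the shares past 2-fold were 8.76% higher and 10.3% lower. At LP against np, 6 of 10 were higher and 0 lower, where 10.9% of all measured probe sets were higher and 12.6% lower. All 10 genes were measured in both comparisons. Their median log2 ratio was 2.45 at EP and 4.26 at LP, against -0.19 and -0.16 over all measured named genes. Counted by probe set, 13 of 19 were 2-fold or more above np at EP and 12 of 19 at LP. Both stages share the np array, so the comparisons are not independent.

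**Figure D3:**
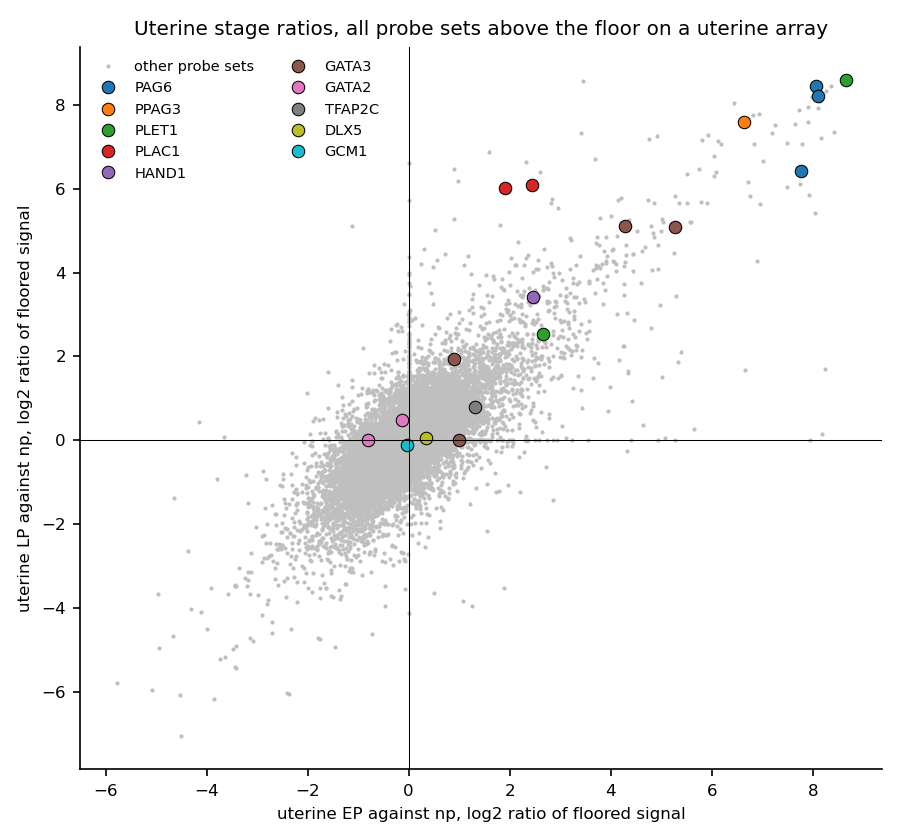
Log2 ratio of uterine EP against np (horizontal) and LP against np (vertical) for every probe set above the floor on at least 1 uterine array, in grey, with the probe sets of the 10 genes in colour; both axes use floored signals and share the np array. PAG6, PPAG3 and the brightest probe set of PLET1 lie at the upper right end, and the second of PLET1 lies at 2.66 and 2.53. PLAC1 lies above the diagonal, and DLX5 and GCM1 lie near 0. The brightest probe set of GATA2 lies at -0.13 and 0.49, and its second at -0.80 and 0.01.

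Between the pregnant uterine arrays few of the genes differed by 2-fold. PLAC1 was the only one of the 10 at 2-fold or more higher at LP than at EP by its brightest probe set, and 0 were lower, where 5.87% of 15537 measured probe sets were higher and 5.62% lower. PPAG3 and HAND1 came close, at 1.94-fold and 1.95-fold. PLET1, GATA3, TFAP2C, DLX5 and GCM1 lay between -0.52 and -0.05 on the log2 scale, and PAG6 and GATA2 at 0.37 and 0.62. With quantile normalization a second gene passed 2-fold, which gave 2 of 10.

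**Figure D4:**
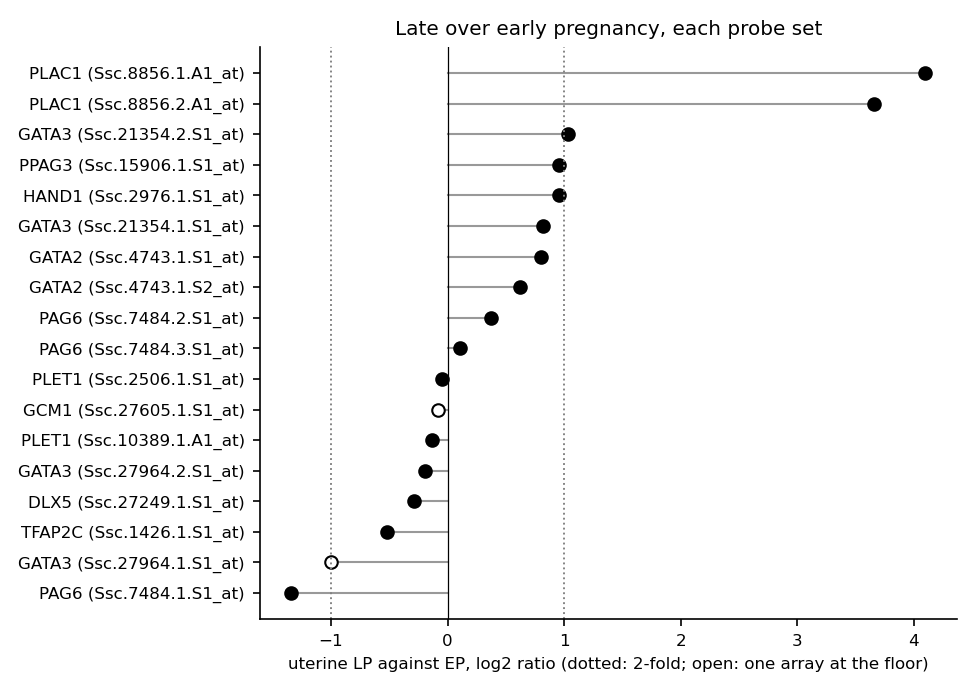
Log2 ratio of uterine LP against EP for each of the 18 measured probe sets of the 10 genes, sorted, with dotted lines at 2-fold and open points where an array lies at the floor. Both PLAC1 probe sets stand apart at 4.10 and 3.66, and the other probe sets lie between -1.34 and 1.03.

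DLX5 and GATA2 were 2-fold or more higher in uterine tissue than in ovary at every stage. Most of the other genes were so only in pregnancy. At np, 2 of the 10 genes, DLX5 (at least 25.3-fold) and GATA2 (8.03-fold), were 2-fold or more higher in uterine tissue than in ovary and 0 lower, where 8.67% of all measured probe sets were higher and 8.74% lower. At this stage 5 of the genes were measured, the others lying at the floor on both arrays. At EP, 9 of 10 were higher and 0 lower (10.6% of all measured probe sets were higher and 12.4% lower). The largest were PAG6 at 91.8-fold, PPAG3 at 90.2-fold, DLX5 at least 31.8-fold, GATA3 at 27.4-fold and PLET1 at 19.8-fold. At LP, 8 of 9 measured genes were higher and 0 lower (12.6% and 12.0%), with PLET1 at least 387-fold, PAG6 at least 349-fold, PPAG3 at least 194-fold and PLAC1 at least 98.3-fold.

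The tissue difference shared by the stages was tested with all 6 arrays, in a model with terms for tissue and for stage. DLX5 had a log2 difference, uterine minus ovary, of 4.78 ± 0.28 (SE) with every ovary signal set to the floor, higher on 3 of 3 pairs of arrays (limma, adjusted p = 0.00358). The SE therefore leaves out the spread among the ovary arrays, and the size of the difference depends on the floor. Its mean deposited signal was 2263 ± 292 in uterine tissue and 43.0 ± 30.0 in ovary (SD, n = 3 arrays of different stages). GATA2 had a difference of 2.65 ± 0.44 (SE), also higher on 3 of 3 pairs (limma, adjusted p = 0.0326), with means of 980.2 ± 231 in uterine tissue and 169.9 ± 97.5 in ovary. The other 8 genes did not pass. PAG6 had a difference of 4.99 ± 1.53 (limma, adjusted p = 0.137) and PLET1 of 4.04 ± 1.61 (limma, adjusted p = 0.223). Thus 2 of 10 tested genes were higher in uterine tissue and 0 lower, where 2.23% of 15882 tested probe sets were higher and 2.84% lower. PLAC1, HAND1, TFAP2C, DLX5 and GCM1 passed the filter on low signals through uterine arrays alone, so this count is a description. With 2 residual degrees of freedom, stage changes that differ between tissues count as error in this model. All 14 epithelial genes passed toward uterine tissue in the same fit, and their part in the DLX5 and GATA2 results was not tested.

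GATA2 lost its call when its probe sets were averaged (limma, adjusted p = 0.0663), and without the np (adjusted p = 0.112), EP (adjusted p = 0.159) or LP arrays (adjusted p = 0.115). DLX5 lost it without the EP arrays (limma, adjusted p = 0.0883). Without the np arrays PAG6, PPAG3 and GATA3 passed (limma, adjusted p = 0.0281, 0.0255 and 0.0269). The fits without a stage have 1 residual degree of freedom.

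The EP ovary array carried signals of some of the same genes, lower than on the EP uterine array. The brightest PLET1 probe set read 1661 there, above 90.4% of probe sets on that array. It read 140.0 on the np ovary array, so EP was 11.9-fold higher. The second PLET1 probe set read 2.8 on the EP ovary array, under the floor. PAG6 was at least 2.94-fold higher with its brightest probe set and at least 3.23-fold higher with Ssc.7484.3.S1_at, while Ssc.7484.1.S1_at lay under the floor at 75.8. Of the 10 genes 5 were measured, and PLAC1, HAND1, TFAP2C, DLX5 and GCM1 lay at the floor on both arrays. In all, 3 of the 5, namely PLET1, PAG6 and GATA2, were 2-fold or more higher in EP ovary than in np ovary and 0 were lower. Over all measured probe sets 2.45% were higher and 2.15% lower. With the floor at the 60th percentile 1 of 10 was above 2-fold. In LP ovary 3 genes were measured, and 0 were higher and 0 lower than in np ovary at 2-fold (2.92% and 3.65% of all measured probe sets).

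Set against the EP uterine array, the EP ovary signal was 5.06% for PLET1, 1.09% for the brightest PAG6 probe set and 1.11% for PPAG3. A wider set was drawn after these values were seen, without using the ovary arrays: probe sets at 5000 or more on the EP uterine array and at or under the floor on the np uterine array. The 36 probe sets found include those of PLET1, PAG6 and PPAG3 that prompted the search. Of the 36, 24 lay above the floor on the EP ovary array, 10 on the np and 8 on the LP ovary array. Over all probe sets the shares above the floor on these arrays were 59.7% (EP), 60.6% (np) and 57.4% (LP). The 24 are thus near the share of the whole EP ovary array, and the 10 and 8 are below the shares of theirs. Of the 23 that lay at or under the floor on the np and LP ovary arrays, 12 exceeded it on the EP ovary array, with at most 3.30% of the EP uterine signal. The 23 were chosen by their ovary signals, so only the EP ovary array could exceed the floor among them. That choice left out the brightest PLET1 probe set (140.0 on the np ovary array, 5.06%) and an unnamed probe set (130.0 on the np ovary array, 7.92%). The 3.30% is therefore no limit for the 36. Markers of other tissues were also read in EP against np ovary. Of 8 measured epithelial genes 1 was 2-fold or more higher, the desmosome protein DSP, and 0 were lower. Of 8 smooth muscle genes 5 were higher and 0 lower, with a median log2 ratio of 1.35. Over all 5466 measured named genes 2.01% were higher and 2.47% lower, with a median of -0.08. The source of these signals was not tested.

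**Figure D5:**
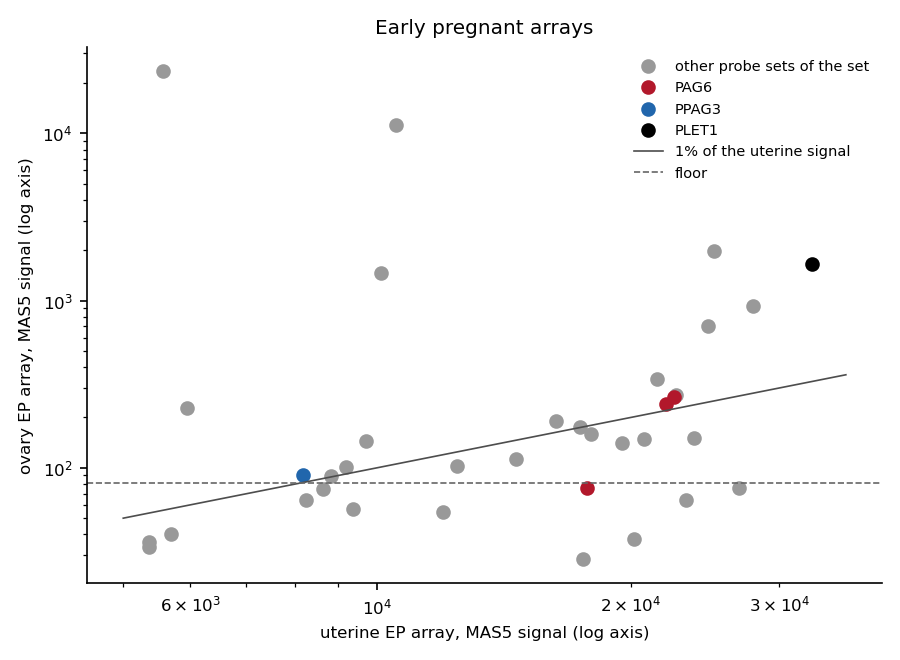
MAS5 signal on the EP ovary array against that on the EP uterine array (both log axes) for the 36 probe sets that were at 5000 or more on the EP uterine array and at or under the floor on the np uterine array; the solid line is 1% of the uterine signal and the dashed line the floor. PAG6 and PPAG3 lie close to or under the 1% line, PLET1 lies above it at 5.06%, and the points far above the line include STAR and PLBD1, which were bright on all ovary arrays.

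Other trophoblast transcription factors showed a mixed picture. Of 26 listed, 11 were on the array by name and 10 were measured in uterine tissue at EP or np. At EP 4 were 2-fold or more higher than at np, namely PPARG, GATA6, ASCL2 and KLF4, and HOPX was lower. Their median log2 ratio was 0.63. Over all 5642 measured named genes 9.18% were higher and 10.3% lower in this comparison, which is the background for each marker list at EP. ASCL2, a factor of placental progenitors in the mouse, read 15.5, 297.3 and 99.2 on the uterine arrays and at most 35.8 on the ovary arrays. PPARG, a nuclear receptor needed for placental development in the mouse, read 53.8, 869 and 559 on the uterine arrays but 1016, 1045 and 1532 on the ovary arrays. GATA6, an endoderm factor also found in ovarian cells, likewise read lower on the pregnant uterine arrays, at 504 (EP) and 314 (LP), than on the ovary arrays, at 1228 or more. CDX2, ELF5, EOMES and TFAP2A had no probe set with their name as the single symbol.

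Of 16 listed products of conceptus and placenta on the array, 10 of 15 measured were 2-fold or more higher at EP than at np and 1 was lower, with a median log2 ratio of 2.42. FOLR1, the folate receptor, read 8.0, 5368 and 8998 on the uterine arrays and at most 33.6 on the ovary arrays. Others were bright in ovary: PLBD1 read 3164, 14589 and 22023 on the ovary arrays, and HSD3B1 19261, 13015 and 16394. On the uterine arrays PLBD1 read 101.7, 18330 and 13788, and HSD3B1 64.1, 3101 and 1822. In EP uterine tissue against EP ovary 7 of 15 measured were higher and 3 lower. Over all measured named genes 10.36% were higher and 11.35% lower there. IFNG, an interferon that pig trophoblast secretes around attachment, read 74.0, 1720 and 64.8 on the uterine arrays, so it exceeded the floor at EP alone. The lower gene was S100G, a calcium-binding protein. By contrast PEG10, an imprinted gene of retroviral origin needed for the mouse placenta, read 350.8, 435 and 8302 on the uterine arrays. Among these it was high at LP alone. On the ovary arrays it read 973.2, 726.8 and 369.5. Some genes of uterine glands were high on the same arrays, and other genes of that list fell. UABP-2, secreted with uteroferrin, read 63.8, 26905 and 28361 on the uterine arrays. Of 14 gland and endometrial genes 7 were 2-fold or more higher and 3 lower at EP than at np. The 3 lower were PGR, ESR1 and MSX1. At LP against np 6 of 13 measured were higher and 5 lower, FOXA2 and SAL1 being lower as well. Over all measured named genes 11.34% were higher and 13.2% lower at LP. RBP4, a retinol carrier that both glands and conceptus secrete, read 372, 22309 and 18751 on the uterine arrays. In these bulk tissues more cells of a type and more RNA per cell cannot be told apart.

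The remaining marker lists give the setting of these values on the uterine arrays, counted at 2-fold for EP against np. Over all measured named genes 9.18% were higher and 10.3% lower. Of 12 fetal membrane and yolk sac proteins on the array 5 were measured, the rest lying at the floor on both arrays. Of the 5, 3 were higher and 0 lower, and RBP4, among the 3, is also on the gland list. Of 4 genes on the globin list, the embryonic globin HBE1 and the globin chaperone AHSP were higher, and the adult globin HBB was lower. Epithelial genes had 2 higher and 3 lower of 14, with a median log2 ratio of 0.07. Smooth muscle genes had 1 higher and 0 lower of 8, endothelial genes 2 higher and 0 lower of 7, and luteal and granulosa genes 3 higher and 0 lower of 7. Among mast cell genes 1 was measured, KIT, and it was lower. Of 8 other symbols of pregnancy-associated glycoproteins listed, 0 had a probe set of their own. PAG2 and PAG10 on that list are names that PAG6 also carries, and the rest were not analysed here.

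The genes most similar in pattern were found by Pearson's correlation of log2 signals over the 6 arrays, among 949 named genes that varied by at least 4-fold. The arrays at the floor share 1 value, which brings many correlations near 1, so they serve as a description. For PAG6 they were GRN (0.999), SULT2A1 (0.997) and GATA3 (0.995). For PPAG3 they were PTGS2, FOLR1 and EDDM3B, and for PLET1 PIGA (0.976), SULT2A1 (0.971) and PAG6 (0.966). PLAC1 was closest to MBNL3 (0.997), AHSP (0.996) and EFHD1 (0.996), and HAND1 to LIF, SOD3 and SLC7A4. GATA3 was closest to GRN (0.998), ARSE (0.997) and UABP-2 (0.997), a gland product. DLX5 was closest to SMIM22, MYO5B (0.996) and FUT2 (0.996), and GATA2 to SERPINF1 (0.988), CKB (0.981) and DSP (0.973). Among the 10 genes themselves, PAG6 correlated with PPAG3 at 0.990, with HAND1 at 0.975 and with DLX5 at 0.682.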

How the data were processed

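Expression was measured on 6 Affymetrix single-channel arrays, 1 per tissue and stage. The authors deposited linear intensity signals, 1 per probe set, for which the submitters' processing notes name MAS5 with no version or settings. The mean after trimming 2% at each end was 500.1 on every array, so a common scaling was already in the values, and changes in total RNA cannot be seen. The precision is limited by the number of arrays.

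Of 24123 probe sets, 124 controls were left out. Gene symbols came from the platform's annotation: 10069 probe sets had 1 symbol, 198 several and 13732 none. For all 19 probe sets of the 10 genes the current gene record carried the same symbol. No probe, promoter or protein sequences were used here. Signals were raised to a floor of 81.7 (the 40th percentile) before log2. The probe set with the highest mean signal stood for a gene. Stages, and tissues within a stage, were compared by ratio without a test and called at 2-fold among probe sets exceeding the floor on either array. The test between tissues used limma 3.58.1 (R 4.3.3), with terms for tissue and stage and an intensity trend, on probe sets above the floor on 2 or more arrays; p-values were adjusted by Benjamini-Hochberg and called under 0.05. The p-values measure agreement across arrays of different stages, not across animals. Python 3.11.15 with numpy 2.4.6 and pandas 2.3.3 was used.

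The 10 genes and 12 marker lists (other trophoblast factors, other pregnancy-associated glycoproteins, conceptus and placental products, fetal membrane proteins, globins, uterine gland, epithelium, smooth muscle, luteal and granulosa, endothelium, T cell, mast cell) were chosen with earlier results of these data known. From each list up to 4 genes with the largest EP to np ratio could be named, plus any counted in a group of 5 or fewer; DSP, PEG10, DPPA5, AFP and TTR fall outside this rule and were chosen after their values were seen. The 3 genes most similar in pattern were named for each gene with a log2 range of at least 2. Alternatives were floors of 33.7 (25th percentile) and 246.2 (60th), adding a pseudocount of 16 instead, quantile normalization, median centring, averaged probe sets, no filter, no intensity trend, no stage block and leaving out a stage.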

Additional observations from a re-analysis of the deposited data

Results flagged for a closer look

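Genes were picked out where both pregnant arrays had ratios against np of one sign in uterine tissue and of the opposite sign in ovary, however small. None of the 10 genes met this, and 8 marker genes named by rule did. Their log2 ratios are given for EP and then LP. The difference between the tissues was not tested, and several ovary ratios lie near 0. STAR had at least 6.09 and at least 6.40 in uterine tissue and -0.30 and -0.15 in ovary. HSD3B1 had at least 5.25 and at least 4.48 in uterine tissue and -0.57 and -0.23 in ovary. ACP5 had 5.26 and 5.83 in uterine tissue and -1.55 and -1.72 in ovary. SPP1 had 4.44 at both stages in uterine tissue and -1.06 and -1.92 in ovary. APOE had 0.91 and 1.51 in uterine tissue and -0.45 and -1.11 in ovary. ACTA2 had 0.81 and 0.92 in uterine tissue and -0.05 and -0.34 in ovary. The globin HBM had 0.50 and 0.65 in uterine tissue and -1.21 and -1.51 or lower in ovary, whereas HBB had -1.52 and -1.33 in uterine tissue and 0.02 and 0.24 in ovary.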

How the results depend on the processing

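No ratio of the 10 genes at 2-fold or more turned its sign under the other floors, the pseudocount, quantile normalization, median centring or averaged probe sets. Some fell short of 2-fold. With the floor at the 60th percentile HAND1 had a log2 ratio of 0.87 and TFAP2C of 0.00 for uterine EP against np and for EP uterine tissue against ovary, and EP against np ovary gave 0.00 for PAG6 and 0.20 for GATA2. With averaged probe sets GATA2 had 0.89 for EP uterine tissue against ovary and 0.68 for EP against np ovary. The counts of genes at 2-fold for uterine EP or LP against np stayed within 1.5 times. For LP against EP, quantile normalization gave 2 genes higher in place of 1. At np, 1 gene was 2-fold or more lower in uterine tissue than in ovary with the floor at the 25th percentile or the pseudocount, in place of 0. Alternatives for the ovary stages were added after seeing the data: in EP ovary 1 gene was lower with the floor at the 25th percentile and 1 higher with the floor at the 60th, and in LP ovary 2 and 1 were lower with the lower floor and the pseudocount. In the tissue fit, 1 of the 10 genes passed with averaged probe sets, 0 without the filter, 4 without the np, 0 without the EP and 1 without the LP arrays, in place of 2. Over all probe sets the calls (higher and lower in uterine tissue) were 354 and 451, against 179 and 298 with the floor at the 60th percentile, 0 and 0 without the filter (2782 at an unadjusted p under 0.05), 0 and 0 without the EP arrays (1790 unadjusted), and 118 and 109 without the LP arrays. There were 138 lower calls without the np arrays and 715 without the stage block. Without the filter DLX5 and GATA2 lost their calls (limma, adjusted p = 0.193 and 0.287). The cause of these shifts was not tested. Over the 12 alternatives the adjusted p lay between 0.000211 and 0.193 for DLX5 and between 0.0112 and 0.287 for GATA2. No paired analysis was possible because each group has 1 array and the labels carry no replicate numbers; the stage term of the tissue fit matches arrays by stage only. Signals near the floor limit GCM1, TFAP2C, HAND1 at EP and the dimmer probe sets of GATA3.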

Other observations

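Some transcripts stood high on the EP uterine array alone. HBE1, the embryonic epsilon globin, read 44.3, 20201 and 64.1 on the uterine arrays at np, EP and LP and at most 37.6 on the ovary arrays, while adult HBB read 1440.1, 501 and 574 on the uterine arrays. DPPA5, a gene of pluripotent cells, read 13.8, 24720 and 266 on the uterine arrays, and 478, 701 and 178 on the ovary arrays. APOA2, an apolipoprotein made in yolk sac and liver, read 38.3, 957 and 14.2 on the uterine arrays, but AFP and TTR, other products of those tissues, lay under the floor on all 6 arrays. These genes differ from PAG6, PPAG3 and PLET1, which stayed high at LP.

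AHSP, the chaperone of alpha globin, read 81.7, 219.4 and 638.5 on the uterine arrays, and transferrin, TF, read 62.0, 574 and 4121. Both were higher at LP than at EP, as PLAC1 was.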
